A study of Homo sapiens with 6 samples.

Results

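The liver X receptors (LXRs) and the genes through which they steer cholesterol out of cells were examined in cells labelled HepG2, a human liver cancer line, after exposure to cationic liposomes (CLs). The set held 7 genes chosen by symbol from the 40205 genes of the count table, and all 7 were found there. They were the receptors NR1H2 (LXR-beta) and NR1H3 (LXR-alpha), the cholesterol exporters ABCA1 and ABCG1, and the targets MYLIP, LPCAT3 and SREBF1. RNA-seq covered 3 untreated control samples, named Control-1, -2 and -3, and 3 samples given CLs over 24 h, named CLs-1, -2 and -3, all from 1 cell line with no genetic change named in the labels. The labels give the dose as 120 μM, while the study's text gives the same figure both in μM and in μg/ml. The liposomes were made of the cationic lipid DOTAP, cholesterol and a PEG-linked phospholipid, so the treatment itself carried cholesterol. Nothing in the labels says whether the 3 samples of a group came from separate cultures, so p-values measure the spread between these samples only.

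LXRs are nuclear receptors that bind oxysterols and, paired with a retinoid X receptor (RXR), switch on genes of cholesterol export and fatty acid synthesis. They are known for answering cholesterol excess, whereas the SREBP-2 pathway answers cholesterol shortage by raising the enzymes that make cholesterol and the uptake of it. In textbook terms, a cell loaded with sterol lowers the second set and raises the first. The comparison asked whether LXR targets rose in CLs-treated cells while the genes of sterol synthesis fell.

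Libraries held 11418527 to 13998946 reads assigned to genes. At these depths 3 counts, taken as the floor, correspond to 0.214 to 0.263 CPM (counts scaled to a common library size), and this floor covers counting error only. The defining hepatocyte markers were nearly absent. The 10 markers ALB, APOB, TTR, AFP, SERPINA1, FGB, HNF4A, APOA2, TF and APOH summed to between 0 and 16 counts in 5 libraries and to 76 counts in CLs-1. ALB, the gene of serum albumin, was at 0 counts in those 5 libraries and at 8 in CLs-1, and TTR and APOH were at 0 in all 6. HepG2 is therefore used here as the submitters' label only. CLs-1 also stood apart in markers of other cell types. The 7 steroidogenic markers summed to 47.5 CPM there and to 6.08 to 9.42 CPM elsewhere, and 9 of the 14 blood, macrophage and stromal markers exceeded 3 counts in CLs-1 against 4 to 6 in the other libraries. The summed level of the latter list was 732.1 to 1094 CPM in the controls and 817 to 972.9 CPM in the CLs-treated samples, most of it from COL3A1, and CD163 was at 0 counts throughout. That sum hides members that were high in CLs-1, with COL1A2 at 1044 counts against 0 to 2 elsewhere, HBB at 324 against 0 to 4 and HBA2 at 118 against 0 to 3. Control-3 was the other library that stood apart, and the genes described here were among those in which it did so.

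None of the 7 genes was called in the CLs-treated group. A call needed a fold above 1.5 or below 0.67 and, in the quasi-likelihood test of edgeR over 15047 genes, an adjusted p (Benjamini-Hochberg) under 0.05. Across all genes the same rule called 0.0133% higher and 0.0731% lower in CLs-treated samples. None of the 7 had groups that did not overlap, against 5.34% of all tested genes with every CLs-treated sample above the controls and 6.18% with every one below. Of the 6 that had enough reads to be tested, 3 had a positive and 3 a negative log2 fold change, with a median of -0.02 beside 0.01 over all tested genes. The smallest adjusted p-value among the 6 was 0.987. In edgeR 0 of the 6 had an unadjusted p under 0.05, against 874 of all 15047 genes. DESeq2's Wald test and limma-voom called none of them either. As bulk RNA was measured, fewer expressing cells and less RNA per cell cannot be told apart.

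Promoter sequences were taken from RefSeq (GRCh38.p14), from 250 bases before to 50 after each start site. They were searched on both strands for a relaxed form of the repeat that LXR-RXR pairs are known to bind, spelled GGTNA, then any 5 bases, then GGTNA again, and for a core of the element that SREBPs bind, spelled TCACNCCAC. The 7 genes had 9 such promoters over 6 genes, and ABCG1 was not matched. The LXR-type repeat was found in 1 of the 9, that of ABCA1, and in 0.626% of all 35116 promoters. The sterol synthesis enzymes had 20 promoters over only 15 genes, and the other enzymes of the list were not matched. The repeat was found in 1 of these 20, that of HMGCS1. Of the 17 promoters of other known LXR targets, over 12 genes, none held it. The SREBP-type core was in none of the 9, in none of the 20 promoters of the 15 enzymes and in 1.13% of all promoters. It was found in 1 of 17 promoters of other LXR targets, that of MID1IP1. It was also in 1 of 8 of the SREBP pathway, over 7 genes, that of SREBF2 (SREBP-2). The stretches around the matches in ABCA1 and SREBF2 are shown because these genes head the export and the synthesis arm. Both are written 5′ to 3′ in the direction of the gene, with the match in capitals. The ABCA1 stretch lies on the minus strand at chr9:104928180-104928254 and its match begins at position -69 from the start site, reading on the opposite strand. The SREBF2 stretch lies on the plus strand at chr22:41832942-41833010, with its match beginning at position -133.
ABCA1: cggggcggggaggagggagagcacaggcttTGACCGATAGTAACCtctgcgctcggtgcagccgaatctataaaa
SREBF2: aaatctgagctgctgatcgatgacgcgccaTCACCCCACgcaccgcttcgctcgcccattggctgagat
A match describes letters in a window and shows no binding. The lack of a match means only that these spellings were absent from the window, as other spellings and positions were not searched.

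Both receptors were expressed and neither passed the test. NR1H2, the LXR found in most tissues, had 50.9, 51.9 and 58.3 CPM in the controls, in the order Control-1, -2 and -3, and 45.3, 64.4 and 56.2 CPM in the CLs-treated samples, in the order CLs-1, -2 and -3. Values are given in this order throughout. The CLs-treated samples lay on both sides of the controls. Its group means were 53.7 ± 4.03 and 55.3 ± 9.56 CPM (SD, n = 3 each), and the log2 fold change was 0.04 ± 0.15 (SE, the standard error; adjusted p = 0.998, edgeR). The 95% interval of the fold ran from 0.814 to 1.30, so NR1H2 had the most closely bounded change of the 6 genes tested. NR1H3, the LXR known for its high level in liver and macrophages, had 15.0, 13.0 and 19.6 CPM in the controls and 13.6, 23.3 and 21.8 CPM in the CLs-treated samples. CLs-2 and CLs-3 lay above all controls, and CLs-1 lay among them. Its means were 15.9 ± 3.42 and 19.6 ± 5.22 CPM, a log2 fold change of 0.30 ± 0.23 (SE; adjusted p = 0.987), and the interval of the fold was 0.862 to 1.76. Without CLs-1 the log2 fold change of NR1H3 was 0.51 (adjusted p = 0.510). In the GENCODE v29 annotation ACP2 shares 5.39% of the exon bases of NR1H3 on the opposite strand, and the strand setting of the count is not given in the sources used here.

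ABCA1, which moves cholesterol and phospholipid onto lipid-poor apolipoprotein A-I, was at the floor. It had 1 count in each control and 9, 0 and 1 counts in the CLs-treated samples. With these reads it did not pass edgeR's filter on low counts and no fold change is given. The exact 95% Poisson interval of the 9 counts in CLs-1 was 4.12 to 17.1 counts, while a single count allows up to 5.57 and the 0 in CLs-2 up to 3.69. CLs-1 alone stood above the floor. The same library held the reads of other apolipoprotein and lipid transport genes that were at or near the floor elsewhere. APOE had 75 counts in CLs-1 and 2 to 4 in the other 5 libraries, APOC1 had 40 against 0 to 2, and APOA1, the acceptor of ABCA1, had 51 against 0 to 2. The steroidogenic and blood markers of CLs-1 given above moved with these reads, and their part in the ABCA1 count was not tested.

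ABCG1, which exports cholesterol to mature HDL, had few reads and a spread within the controls larger than any difference between the groups. It had 2, 4 and 68 counts in the controls, and 12, 16 and 33 in the CLs-treated samples. Control-3 was the highest of the 6 libraries, and the CLs-treated samples lay between it and the other 2 controls. In CPM the groups were at 2.12 ± 3.22 and 1.70 ± 1.07 (SD, n = 3 each), a log2 fold change of -0.34 with a standard error of 0.91 (adjusted p = 0.998). The interval of the fold, 0.198 to 3.15, spanned both directions. Without Control-3 the log2 fold change of ABCG1 was 2.64 (standard error 0.71), with the opposite sign, and its adjusted p was 0.381 in edgeR. With a 95% interval of 1.07 to 4.21 in that fit, ABCG1 did not pass the adjusted threshold. The controls left in that fit held 2 and 4 counts, around the floor of 3. The size of its fold change was therefore not resolved.

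MYLIP encodes the ubiquitin ligase IDOL, an LXR target that limits cholesterol uptake. It had 7.99, 12.2 and 15.3 CPM in the controls and 12.3, 17.0 and 14.1 CPM in the CLs-treated samples. Control-1 was the lowest and CLs-2 the highest, with the other 4 libraries between them. The means were 11.8 ± 3.69 and 14.5 ± 2.41 CPM, the log2 fold change was 0.29 ± 0.24 (SE; adjusted p = 0.998), and the fold had an interval of 0.840 to 1.77. Without Control-1 the log2 fold change of MYLIP was 0.07, and without Control-3 it was 0.52 (adjusted p = 0.868). LPCAT3, which puts polyunsaturated fatty acids into membrane phospholipids, had 24.6, 26.9 and 43.7 CPM in the controls and 24.2, 34.0 and 31.8 CPM in the CLs-treated samples. Control-3 was again the highest library, and the other 2 controls were close to CLs-1. Its log2 fold change was -0.08 ± 0.23 (SE; adjusted p = 0.998), with a fold interval of 0.669 to 1.33. In GENCODE v29, EMG1 on the opposite strand shares 66.4% of the exon bases of LPCAT3, so reads of the pair cannot be told apart without strand. EMG1 had 1746, 1295 and 990 counts in the controls, and was thus lowest in the control in which LPCAT3 was highest.

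SREBF1 encodes SREBP-1, the factor that drives fatty acid synthesis, and its 1c form is a classic LXR target. The count is per gene, so the 1a and 1c forms were not separated. SREBF1 had 98.3, 154.9 and 264.3 CPM in the controls and 134.7, 158.2 and 165.2 CPM in the CLs-treated samples. The controls spanned the whole range of the gene and the CLs-treated samples fell inside it. The means were 172.5 ± 84.4 and 152.7 ± 16.0 CPM (SD, n = 3 each), a log2 fold change of -0.18 ± 0.28 (SE; adjusted p = 0.998), with a fold interval of 0.579 to 1.35. Without Control-3 it was 0.27 (adjusted p = 0.980) and without Control-1 it was -0.46 (adjusted p = 0.847), so a single control set the sign. By exact two-sided permutation of the 3 against 3 samples, whose smallest possible p is 0.10, the p-values of the 6 genes were 1 for NR1H2 and SREBF1, 0.9 for LPCAT3, 0.6 for ABCG1, 0.4 for MYLIP and 0.3 for NR1H3.

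**Figure D1:**
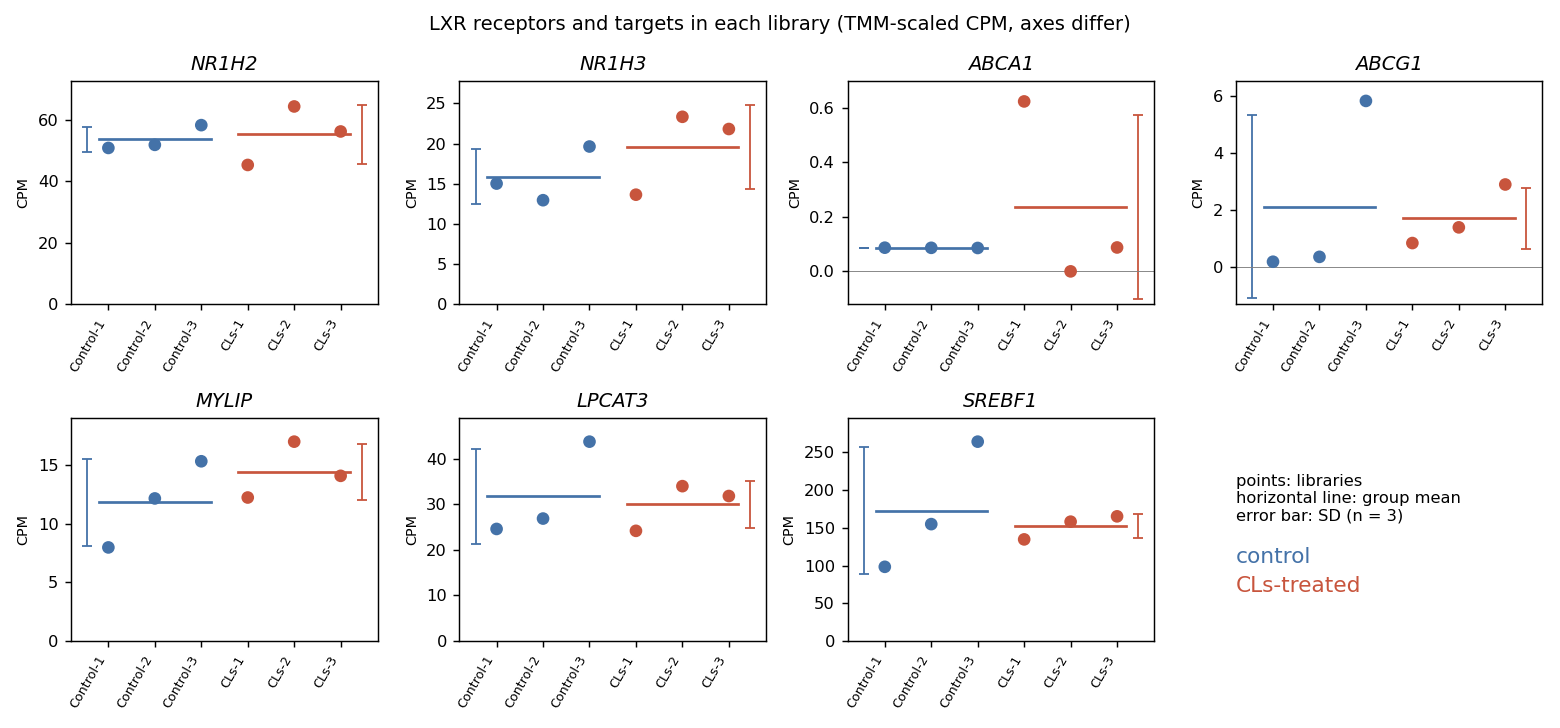
Level of each of the 7 genes (y axis, TMM-scaled CPM, a separate scale per panel) in the 3 control (blue) and 3 CLs-treated (red) libraries, with the group mean as a line and the SD as a bar. Control-3 is the highest library for ABCG1, LPCAT3 and SREBF1, and ABCA1 exceeds 0.263 CPM in CLs-1 only.

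Levels between genes were compared per kilobase of exon (GENCODE v29), as CPM per kilobase. SREBF1 was the highest in the controls, at 38.4 ± 18.8 (SD, n = 3), followed by NR1H2 at 25.7 ± 1.92 and LPCAT3 at 14.0 ± 4.61. NR1H3 and MYLIP followed at 4.53 ± 0.977 and 3.90 ± 1.22, then ABCG1 at 0.465 ± 0.707, with ABCA1 last at 0.00771, 0.00767 and 0.00762 in the 3 controls. In the controls SREBF1 and NR1H2 did not differ beyond their spread, nor did NR1H3 and MYLIP. In the CLs-treated samples the order was the same, from SREBF1 at 34.0 ± 3.57 and NR1H2 at 26.4 ± 4.57 to ABCG1 at 0.374 ± 0.234. The LXR-beta gene was thus read at a higher level per kilobase than the LXR-alpha gene in every library, as in Control-1 with 24.3 against 4.29 and in CLs-2 with 30.8 against 6.66. Of the 2 exporters, the highest value in any library was 1.28 CPM per kilobase, for ABCG1 in Control-3.

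Beside the LXR genes, those that make cholesterol had mostly negative values. All 20 sterol synthesis enzymes were tested, and 19 had a negative log2 fold change, with a median of -0.51 beside 0.01 over all tested genes, of which 47.9% were negative. In 12 of the 20 the CLs-treated samples all lay below the controls, against 6.18% of all genes, and none of the 7 LXR genes did so. No enzyme was called in edgeR's test, where 15 of the 20 had an unadjusted p under 0.05, against 874 of all 15047 genes. The smallest adjusted p of the list was 0.0562, for DHCR7. DESeq2's Wald test called 6 of the 20, and over the 14904 genes it tested 15 higher and 89 lower. SQLE, the enzyme of squalene epoxidation, was at 95.4 ± 19.4 and 57.5 ± 11.0 CPM, a log2 fold change of -0.73 (adjusted p = 0.286). HMGCS1, an early enzyme of the pathway, had a log2 fold change of -0.26 (adjusted p = 0.966). The enzymes with the largest differences between groups that did not overlap were TM7SF2, MVD, DHCR7 and MVK, at -0.97, -0.87, -0.83 and -0.74. Their adjusted p-values were 0.392, 0.0974, 0.0562 and 0.180. The list was known from earlier results of these data to be lower, and it is given here to set the LXR genes beside it.

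**Figure D2:**
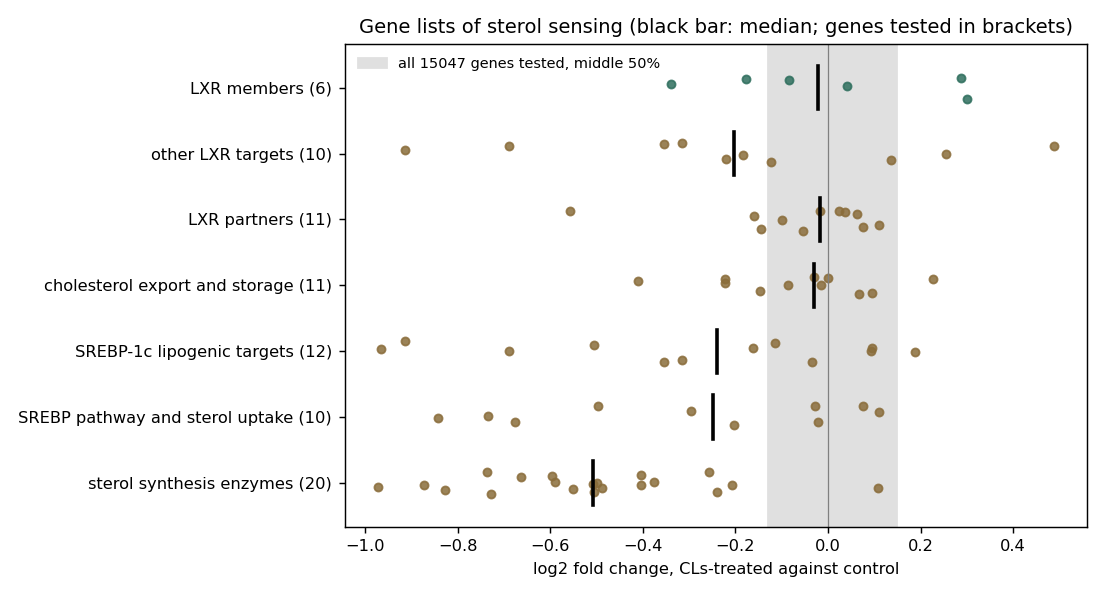
Log2 fold change of CLs-treated against control samples (x axis) for the tested genes of each list (rows, number tested in brackets), with the median as a black bar and the middle 50% of all 15047 tested genes in grey. The 6 LXR genes lie around a median of -0.02 and the 20 enzymes around -0.51.

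The ratio of each LXR gene to the enzymes within a sample depends little on how the libraries were scaled. It was taken as the log2 CPM of the gene minus the mean log2 CPM of the 20 enzymes. For MYLIP this value was -3.28, -2.68 and -2.04 in the controls and -2.11, -1.53 and -1.83 in the CLs-treated samples. Control-1 and Control-2 lay below all CLs-treated samples and Control-3 lay among them. The means were -2.67 ± 0.62 and -1.83 ± 0.29 (SD, n = 3 each), a difference of 0.84 with an exact permutation p = 0.2 (0.4 after adjustment over 2 genes). For SREBF1 the values were 0.33, 0.98 and 2.06 in the controls and 1.34, 1.68 and 1.71 in the CLs-treated samples, a difference of 0.45 with an exact permutation p = 0.5 (0.5 adjusted). The differences of NR1H2, NR1H3, ABCG1 and LPCAT3 were 0.55, 0.80, 1.48 and 0.47. All share the enzymes as denominator, whose mean log2 CPM was 6.19 in the controls and 5.67 in the CLs-treated samples, a difference of -0.52 that enters each ratio. The mean log2 CPM of the genes themselves differed by 0.03 for NR1H2, 0.29 for NR1H3, 0.32 for MYLIP, -0.05 for LPCAT3 and -0.06 for SREBF1, so for LPCAT3 and SREBF1 the ratio came from the enzymes alone. For ABCG1 this difference was 0.96, opposite in sign to the fitted -0.34. In each of these genes the groups overlapped. Without Control-3 the difference was 1.16 for MYLIP and 0.92 for SREBF1, and without Control-1 it was 0.54 and 0.06.

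Within the controls, Control-3 differed from the other 2 in the LXR genes and in the enzymes. On the log2 scale it was above their mean in all 6 tested LXR genes, with a median difference of 0.70, and below it in 19 of the 20 enzymes, with a median of -0.32. Genes of the SREBP pathway and sterol uptake did not share the sign of the enzymes, as 8 of 10 were higher in Control-3, with a median of 0.17. Over all 15047 genes the median difference was 0.0048. Control-1 stood nearly as far on the other side, below the mean of the other 2 controls in all 6 LXR genes, with a median difference of -0.62. ABCG1 had the largest difference of all tested genes, at 3.85. SREBF1 was higher by 1.10 in Control-3 and ranked 310th, LPCAT3 by 0.76 and MYLIP by 0.63, while NR1H3 and NR1H2 were higher by 0.49 and 0.18. The lipogenic genes SCD and MLXIPL, both LXR targets, were higher in Control-3 by 0.95 and 1.60. MLXIPL had few reads, with 2, 10 and 19 counts in the controls, and Control-1 was under the floor of 3. The enzymes SC5D and ACAT2 were lower in Control-3, with differences of -0.76 and -0.67. Among the CLs-treated samples, CLs-1 was below the mean of the other 2 in all 6 LXR genes, with a median difference of -0.42, and its enzymes had a median difference of 0.05. Both libraries were the most distant of their group over all tested genes, with standard deviations of the difference of 0.46 in Control-3 and 0.47 in CLs-1 against 0.31 to 0.41 in the other 4.

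**Figure D3:**
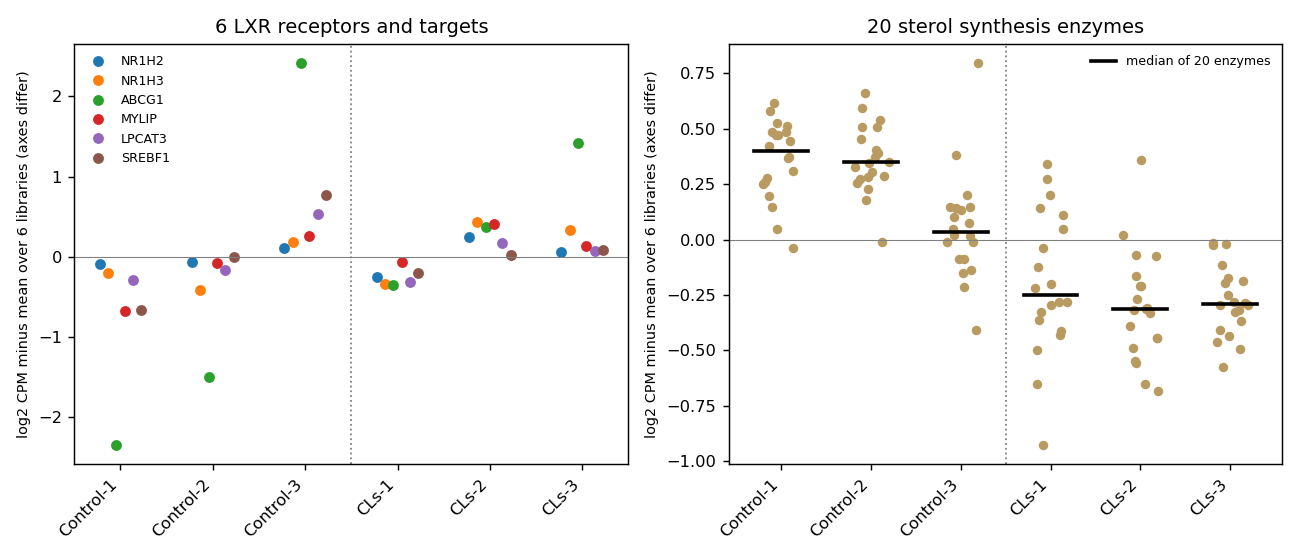
Log2 CPM minus the mean over the 6 libraries (y axes, different scales) in each library (x axis) for the 6 tested LXR genes and for the 20 sterol synthesis enzymes, with the median of the enzymes as a black bar. Control-3 is high in the left panel, ABCG1 furthest, and lies between Control-1 and Control-2 on one side and the CLs-treated libraries on the other in the right panel.

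**Figure D4:**
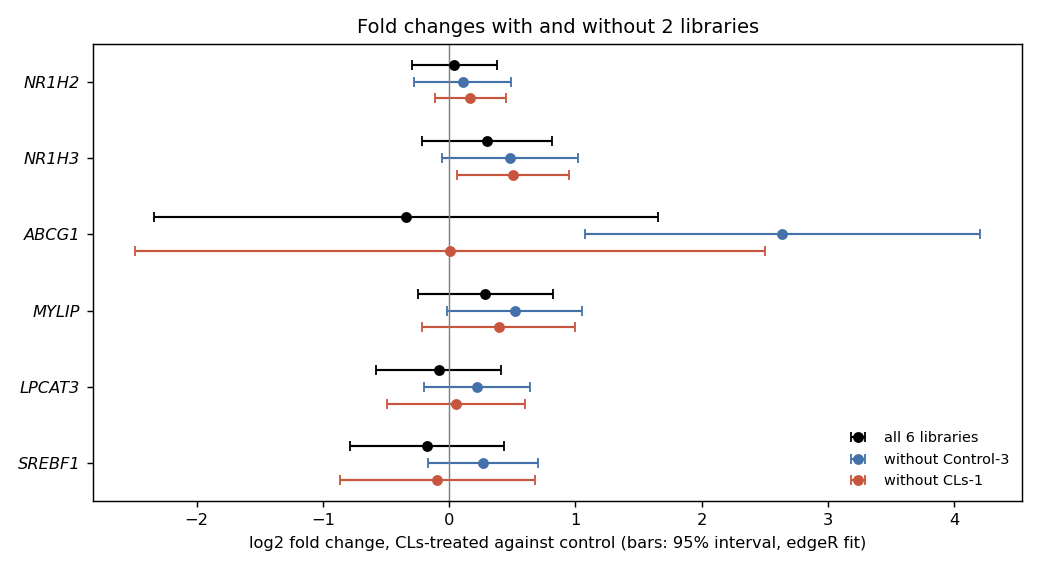
Log2 fold change of CLs-treated against control samples (x axis) with its 95% interval from the edgeR fit, for the 6 tested LXR genes with all 6 libraries (black), without Control-3 (blue) and without CLs-1 (red). ABCG1 moves from -0.34 to 2.64 without Control-3, and LPCAT3 and SREBF1 change sign with it. The controls left in that fit hold 2 and 4 counts of ABCG1.

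Other known LXR targets did not pass the test either. Of the 18 listed, 10 had enough reads to be tested, 7 of them had a negative log2 fold change, and the median was -0.20. None was called in edgeR, where 3 of the 10 had an unadjusted p under 0.05, against 874 of all 15047 genes. The sterol exporters ABCG5 and ABCG8, which pump cholesterol into bile, had at most 2 counts in any library, and ABCG5 was at 0 in all 6. CYP7A1, the first enzyme of bile acid synthesis, had at most 2 counts as well. SCD, the desaturase that makes oleate, was at 467.7, 561.9 and 992.8 CPM in the controls and 371.3, 326.0 and 375.7 CPM in the CLs-treated samples. Every CLs-treated sample lay below every control, for a log2 fold change of -0.91 ± 0.24 (SE; adjusted p = 0.296). FASN, fatty acid synthase, had a log2 fold change of -0.69 (adjusted p = 0.303) and ACACA, acetyl-CoA carboxylase, one of -0.32 (adjusted p = 0.801), also with groups that did not overlap. SCD and FASN were among the genes that DESeq2's Wald test called lower. PLTP, the phospholipid transfer protein, had the largest positive value, 0.49, with overlapping groups (adjusted p = 0.998). It had 6, 19 and 13 counts in the controls and 34, 15 and 10 in the CLs-treated samples. Only CLs-1 lay above the controls, and the part of the other reads of that library in this value was not tested.

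The 12 SREBP-1c lipogenic targets, which include SCD, FASN, ACACA and PNPLA3 from the same list, had 9 negative values, a median of -0.24 and no call in edgeR, while DESeq2's Wald test called SCD, FASN and ACSS2 lower. ACSS2, which makes acetyl-CoA from acetate, was at 27.0 ± 4.45 CPM in the controls and 13.8 ± 1.84 CPM in the CLs-treated samples, a log2 fold change of -0.97 (adjusted p = 0.0974). ACLY, which makes it from citrate, had a log2 fold change of -0.51 (adjusted p = 0.320). In both the groups did not overlap. SREBF1 itself had overlapping groups beside these values of its targets.

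The partners of the receptors were present and none passed the test. RXRA, the partner of LXR in liver, was at 21.6 ± 1.98 and 22.1 ± 0.54 CPM and RXRB at 85.4 ± 8.63 and 90.0 ± 16.8 CPM, while RXRG was at 0 counts in all 6 libraries. The list of partners, corepressors and coactivators had 11 tested members with a median of -0.02. Of the enzymes that make or clear oxysterol ligands, CH25H and CYP7B1 were at 0 counts throughout, and CYP27A1 had 1 to 7 counts. CYP11A1 had 151 counts in CLs-1 and 11 to 29 in the others, and its log2 fold change was 1.70 (adjusted p = 0.570). It is also one of the steroidogenic markers that stood apart in CLs-1, whose part in this value was not tested. 

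Genes of cholesterol export and storage outside the LXR set had a median of -0.03 over 11 tested members, with none called. SCARB1, the HDL receptor, was at 392.9, 399.8 and 385.1 CPM in the controls and 302.8, 346.9 and 359.9 CPM in the CLs-treated samples, a log2 fold change of -0.22 (adjusted p = 0.930), and the groups did not overlap. OSBPL1A, a sterol-binding protein, had the opposite sign, 0.23 (adjusted p = 0.930), again with groups that did not overlap. NPC1 and NPC2, which carry cholesterol out of lysosomes, had log2 fold changes of -0.22 and 0.07. LIPA, the lysosomal lipase that frees cholesterol from its esters, was at 51.7 CPM in both groups (± 0.88 and ± 3.69).

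In the SREBP pathway and sterol uptake, 8 of 10 genes had a negative value and the median was -0.25, with none called in edgeR's test. INSIG1, which holds the SREBPs in the endoplasmic reticulum when sterol is plentiful, had a log2 fold change of -0.84 (adjusted p = 0.201). SREBF2 stood at -0.30 (adjusted p = 0.922), with overlapping groups, and was at 233.6, 254.6 and 342.1 CPM in the controls. Its highest control was thus the same library as for SREBF1.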

How the data were processed

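RNA-seq libraries of 3 control and 3 CLs-treated samples were used, grouped by their labels. The authors deposited raw read counts per gene, which the submitters' processing notes tie to HTSeq 0.6.1 and the hg19 (GRCh37) build; the annotation and the strand setting are not given in the sources used here. Counts were tested in R 4.3.3 with edgeR 4.0.16 (TMM scaling, filterByExpr, which left 15047 genes, and the quasi-likelihood F test with Benjamini-Hochberg adjustment). A gene was called at an adjusted p under 0.05 and a fold above 1.5 or below 0.67. The study's own test, EBSeq, was not used here. Log2 CPM took a prior count of 0.5. A prior count of 2 was used for differences of 1 library from its group, correlations between samples and likeness of profiles. Single values were compared by exact two-sided permutation over samples. Intervals are at 95% and, for counts, cover counting error only. Exon lengths and overlaps came from GENCODE v29 (GRCh38), so values per kilobase are approximate for counts made on another build.

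The 7 genes and the gene lists were chosen with earlier results of these data known. Named genes were the 7, up to 4 members of each other list with the largest change among those whose groups did not overlap, the genes the question turns on (among them HMGCS1, SQLE, INSIG1, SREBF2, ABCG5, ABCG8, APOE, SCD, FASN and RXRA), and for each of the 7 the 3 genes of mean CPM 10 or more with the most similar profile. Other genes were named after their values were seen, and some genes of these lists are not reported here. Alternatives were DESeq2 1.42.0 (size factors and Wald test), limma-voom 3.58.1, library totals, other filters, a replicate block and leaving out each sample. The scripts were tested on simulated data. Depth was 11418527 to 13998946 counts per sample, at which low genes such as ABCA1 could not be compared.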

Additional observations from a re-analysis of the deposited data

How the results depend on the processing

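None of the 6 tested LXR genes was called under any alternative. Of 211 alternative log2 values, which pool the LXR genes, the list medians and the ratios to the enzymes, 18 had the opposite sign to the reported one. Of these, 11 were values of LXR genes, in ABCG1, LPCAT3, SREBF1 and NR1H2. The alternatives include a setting that dropped only the fold criterion and so left every log2 value unchanged. The replicate numbers were not taken to pair the samples in the main fit. Same-numbered samples correlated at 0.11, 0.0987 and 0.305, and differently numbered ones at -0.201 to 0.0783. For every sample the same-numbered sample of the other group gave the highest of these correlations. Whether same-numbered samples were prepared together was not tested. With the replicate block, 12 genes were called higher and 56 lower, ABCG1 was at 0.26, and 2 enzymes, 1 SREBP pathway gene and 1 SREBP-1c target were called, all lower. With library totals, 6 genes were called lower. With every gene that had a read, 58 were called higher and 113 lower, with 5 enzymes, 3 SREBP pathway genes and 3 SREBP-1c targets, all lower. That setting also called 3 other LXR targets (SCD and FASN lower, APOE higher), 1 ligand enzyme (CYP11A1, higher) and 1 export gene (APOA1, higher), and the reads of the latter and of APOE lay mostly in CLs-1. DESeq2's Wald test called 15 higher and 89 lower, with 6 enzymes, 3 SREBP pathway genes, 3 SREBP-1c targets and 2 other LXR targets, all lower. Limma-voom called 1 higher and 6 lower and gave ABCG1 0.91.

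Leaving out 1 sample at a time gave 1 to 3 genes called higher and 2 to 6 lower. The log2 fold change ranged from -0.081 to 0.17 for NR1H2, 0.16 to 0.51 for NR1H3, -0.95 to 2.64 for ABCG1, 0.07 to 0.52 for MYLIP, -0.24 to 0.22 for LPCAT3 and -0.46 to 0.27 for SREBF1. Signs changed without Control-3 for ABCG1 (2.64), LPCAT3 (0.22) and SREBF1 (0.27), without CLs-1 for ABCG1 (0.0086) and LPCAT3 (0.05), and without CLs-2 for NR1H2 (-0.081). List medians ranged from -0.64 to -0.41 for the enzymes, -0.046 to 0.82 for the ligand enzymes, -0.15 to 0.0011 for export and storage and -0.32 to -0.13 for the SREBP pathway. The ratio to the enzymes ranged from 0.54 to 1.16 for MYLIP and 0.06 to 0.92 for SREBF1.

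Leaving out both Control-3 and CLs-1, an alternative chosen after seeing the data that leaves 2 samples a group, gave 21 genes called higher and 81 lower. In all 6 LXR genes Control-3 was above the mean of the other controls and CLs-1 below that of the other CLs-treated samples. The choice of these libraries thus set the direction in which the LXR values moved, and they are no test of a rise. Control-3 was also below the other controls in 19 of the 20 enzymes, so dropping it lowers their values. ABCG1 was then at 2.99 (adjusted p = 0.0653), NR1H3 at 0.69 (adjusted p = 0.0974), MYLIP at 0.63, LPCAT3 at 0.35 and SREBF1 at 0.35, none of them called in edgeR. The value of ABCG1 again rests on controls of 2 and 4 counts. In that fit 11 enzymes were called with a list median of -0.70, the ligand enzymes had a median of -0.13 with 1 called, and the SREBP pathway a median of -0.13 with 1 called. The causes were not tested. Depth limits ABCA1, which was not called with every gene that had a read and is given no fold under any setting, its controls being under the floor.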

Other observations

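The genes whose profiles over the 6 libraries were most like each LXR gene were named by the root mean square difference of log2 CPM after centring, among 9895 or more genes. Profiles over 6 libraries from 2 groups share depth and library, so this is a description. A gene chosen this way shares the high and low libraries of the LXR gene by selection. For SREBF1 the nearest were PARP10 (0.0372), PLD1 (0.0669) and LPHN1 (0.0738), against a median of 0.465 over all genes compared. PARP10 had 112, 178 and 309 counts in the controls and 180, 176 and 185 in the CLs-treated samples, so it too had its highest count in Control-3. For LPCAT3 they were NIPSNAP1 (0.0418), RGL2 (0.0452) and R3HDM2 (0.0468), each highest in Control-3.

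Among the genes compared, all of mean CPM 10 or more, none came as near to ABCG1. ABCG1 itself was at 2.12 CPM in the controls and 1.70 CPM in the CLs-treated samples, and genes that low were not compared. The nearest were UBE2L6 (0.735), RARRES3 (0.776) and C19orf66 (0.780), against a median of 1.44. RARRES3 had 69, 61 and 442 counts in the controls and 82, 90 and 117 in the CLs-treated samples. UBE2L6 had 58, 69 and 266 counts in the controls and 92, 92 and 153 in the CLs-treated samples. All were highest in Control-3, as ABCG1 was, which follows from choosing them by likeness to it.

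NR1H3 was nearest to DGAT2 (0.0776), an enzyme of triglyceride synthesis, then TMEM256 (0.0912) and CAPG (0.0986), against a median of 0.382. DGAT2 had 99, 83 and 142 counts in the controls and 121, 146 and 153 in the CLs-treated samples. MYLIP was nearest to NEAT1 (0.0783), a long non-coding RNA of nuclear paraspeckles, then IL17RC (0.0835) and GLI4 (0.0865), against a median of 0.396. NR1H2 was nearest to NOD1 (0.0304), RNF166 (0.0326) and IGBP1 (0.0333), against a median of 0.244.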
